A study of Arabidopsis thaliana with 30 samples.

Results

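The Casparian strip genes described here are 8 of 9 loci of Arabidopsis thaliana that were listed by name: the scaffold genes CASP1 (AT2G36100), CASP2 (AT3G11550), CASP4 (AT5G06200) and CASP5 (AT5G15290), the regulator MYB36 (AT5G57620), the kinase SGN1 (AT1G61590), the receptor SGN3 (AT4G20140, annotated as GSO1) and the dirigent gene ESB1 (AT2G28670). Each locus has a row among the 32678 genes of the mutant table, the 34218 genes of the induction table and the 33602 genes of the sorted-cell files. The series holds 30 RNA-seq libraries in 10 groups of 3, all from 5-day-old seedlings. In the mutant table, whole root meristems of the pear sextuple mutant, named for the PEAR Dof factors of the phloem, are set beside those of the wild type Col-0. The labels do not describe the 6 alleles.

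The induction table holds whole root meristems of 2 transgenic lines in the Col-0 background, pWOL(XVE)::ZAT14-like-TURQ and pWOL(XVE)::ZAT14-TURQ. XVE is an estradiol-responsive activator, and the WOL promoter is known for activity in the vascular cylinder, so the inserted gene is switched on inside the stele. Each line was given the solvent DMSO, or 5 µM estradiol for 10 h or 14 h. The sorted-cell files hold protoplasts of a line that carries pCALS7::H2B-RFP together with pNAC086(XVE)::PLT2-3YFP, in which sieve element nuclei are red and PLT2 with a yellow tag can be induced in young sieve elements. From that line, cells positive for RFP were taken after DMSO, and cells positive for both RFP and YFP after 6 h of 10 µM estradiol. Meristems were cut by hand with a needle, in batches of 15 seedlings, so where the cut fell sets how much older tissue a library holds. The labels number the libraries and do not say whether they came from separate plants, so each p-value measures the spread between these libraries.

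The endodermis is the innermost layer of the root ground tissue, and the Casparian strip is the band of lignin that seals its cell walls as the cells leave the meristem and differentiate. CASP proteins form a platform in the plasma membrane that marks where the band is laid down. The transcription factor MYB36 switches on the CASP genes and ESB1. SGN3 is a receptor kinase that senses the small peptides CIF1 and CIF2, made in the stele, and passes the signal through the kinase SGN1, so that gaps in the band are found and closed. ESB1 is a dirigent-domain protein needed for lignin to be deposited in the right place.

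In the TAIR10.1 annotation the 4 CASP genes have 3 exons each and lie on chromosome 2 (CASP1 at 15159591 to 15160799, minus strand), chromosome 3 (CASP2 at 3638178 to 3639348, plus strand) and chromosome 5 (CASP4 at 1877134 to 1878324 and CASP5 at 4967011 to 4968092, both on the plus strand). MYB36 lies on the plus strand of chromosome 5 at 23334767 to 23336632, SGN1 on the minus strand of chromosome 1 at 22723368 to 22726190, and SGN3 on the plus strand of chromosome 4 at 10883921 to 10888270. ESB1 lies on the minus strand of chromosome 2 at 12300265 to 12302358, and 84.3% of its exon bases are shared with AT2G28671 on the opposite strand. Shared exon bases came to 7.88% for SGN3, 5.42% for CASP1 and 0.448% for CASP5, and to 0 for the other 4 genes. Whether the counting used the strand is not given in the sources used here, so reads of ESB1 and of its antisense partner cannot be told apart. Reads from the shared stretch could also have been dropped in counting, so low values of ESB1 may be a counting effect in all libraries. CASP1, CASP2, CASP4 and CASP5 are paralogs of one another, and reads from stretches they share could have been split or dropped in counting.

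The 3 genes that passed the test in the mutant were CASP5, MYB36 and SGN1. The 250 bases before each of their annotated starts, read from the TAIR10.1 genome of RefSeq, are shown because these genes were called. They cover chr5:4966761-4967010 (CASP5, plus strand), chr5:23334517-23334766 (MYB36, plus strand) and chr1:22726191-22726440 (SGN1, minus strand), each written 5′ to 3′ on the strand of its gene. Capitals mark the MYB core motif CNGTTA on either strand and, in SGN1, also the AC element ACCAACC.
CASP5: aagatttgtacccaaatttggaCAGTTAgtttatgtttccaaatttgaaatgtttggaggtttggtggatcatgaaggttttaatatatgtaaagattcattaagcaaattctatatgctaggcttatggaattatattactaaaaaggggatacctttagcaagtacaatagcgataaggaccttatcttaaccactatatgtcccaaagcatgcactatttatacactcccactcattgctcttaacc
MYB36: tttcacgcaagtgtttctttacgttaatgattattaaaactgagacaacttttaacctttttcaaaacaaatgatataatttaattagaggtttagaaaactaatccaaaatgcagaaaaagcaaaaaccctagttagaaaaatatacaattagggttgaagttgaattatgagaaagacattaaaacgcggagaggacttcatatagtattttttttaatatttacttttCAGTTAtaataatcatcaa
SGN1: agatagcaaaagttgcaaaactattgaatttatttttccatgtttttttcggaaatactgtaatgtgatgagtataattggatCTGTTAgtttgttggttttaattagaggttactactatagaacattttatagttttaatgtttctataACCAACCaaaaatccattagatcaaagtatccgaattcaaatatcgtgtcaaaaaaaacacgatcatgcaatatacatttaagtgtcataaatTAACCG
Matches to CNGTTA began 228 bases before the start in CASP5 and 19 bases before it in MYB36, and SGN1 held 2, at 167 and 6 bases. The same motif was found 2 times in the window of ESB1, and not in those of CASP1, CASP2, CASP4 and SGN3. It occurred in 26.6% of 27443 windows of this length across the genome, and the single ACCAACC match, in SGN1, belongs to a motif found in 2.69% of them. The other AC element, ACCTACC, was in none of the 8 windows and in 1.16% of all, and TTTGTC, the motif of the IDD (BIRD) factors, was in that of ESB1 and in 24.1% of all. These matches are a description of the letters. The 4 motifs share no letters where they matched.

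Of 6 Dof genes looked at as targets of the mutant, 4 were lower in every mutant library than in every Col-0 library: AT5G02460 (0 to 0.169 against 2.47 to 2.89 FPKM), DOF2.4 (0.998 to 1.14 against 2.15 to 2.74), DOF6 (0.143 to 0.416 against 2.49 to 3.70) and OBP2 (0.0693 to 0.295 against 5.41 to 6.84). TMO6 (73.8 to 82.0 against 11.3 to 13.4) and HCA2 (1.70 to 3.00 against 0.187 to 0.344) were higher, and a transcript level alone does not say which of these genes carries an allele. PLT2 had 155 to 305 counts after DMSO and 792102 to 2985826 after estradiol. In the induction table, AT5G04390 stood at 48.2 to 79.8 FPKM in the estradiol libraries of the ZAT14-like line against 5.46 to 6.59 after DMSO, and AT5G03510 at 41.6 to 71.4 against 13.9 to 16.0 in the ZAT14 line. The transcript of SCR, which specifies the endodermis, was at 22.2 to 36.9 FPKM in all 24 meristem libraries. That level alone does not say how much endodermis each of them held. Estimated depth was 17.7 to 25.84 M fragments (M, 1e6) in the mutant table and 18.0 to 26.58 M in the induction table, and the sorted-cell totals were 31426740 to 44837397 counts.

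In the pear sextuple mutant, the regulator MYB36, the scaffold gene CASP5 and the kinase gene SGN1 were called higher. The receptor gene SGN3 did not pass the test, and the remaining 4 genes were too low to enter it. A gene was tested when it reached 1 FPKM in at least 3 libraries. Because Col-0 was near 0 for CASP5 and SGN1, both entered through the mutant libraries alone, so their passing the filter already implied a difference. With limma on log2(FPKM + 1) and Benjamini-Hochberg adjustment at 0.05, 3 of the 4 tested genes were higher and 0 lower. Of the 17062 genes tested, 63.2% were called in either direction and 44.6% were called higher and 18.6% called lower. The median log2 fold change was 1.34 over the 4 tested Casparian strip genes and 0.21 over all tested genes, and values below are not corrected for that shift. Without the filter, the median was 0.47 over all 8 genes and 0.09 over all genes.

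MYB36, which drives the program, was measured well in every library of the mutant table. Its FPKM was 3.48, 4.03 and 3.13 in Col-0 libraries 1, 2 and 4, and 12.3, 10.8 and 9.38 in mutant libraries 2, 3 and 4. The groups lay far apart, the lowest mutant library being more than double the highest of Col-0. Means were 10.8 ± 1.44 (SD, n = 3) and 3.55 ± 0.449 (SD, n = 3), a ratio of 3.05, and the log2 fold change was 1.38 ± 0.12 (SE; limma, adjusted p = 3.82e-05).

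The CASP genes encode the membrane scaffold, and CASP5 moved furthest of them. In Col-0 it was at 0.0918, 0.0581 and 0.0594 FPKM, which corresponds to an estimated 2, 1 and 1 fragments, and in the mutant it was at 7.66, 8.14 and 2.93 FPKM, an estimated 129, 129 and 68 fragments. CASP5 was thus close to undetected in wild-type meristems and plainly present in each mutant library, with library 4 at well under the level of the other two. The log2 fold change was 2.66 ± 0.29 (SE; limma, adjusted p = 0.000118), on a scale that understates the change of a gene starting near 0.

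The other scaffold genes stayed near or below 1 FPKM. CASP1 was at 0.269, 0.0568 and 0 FPKM in Col-0 and at 1.29, 0.457 and 0.179 in the mutant, and CASP2 at 0.325, 0 and 0 against 0.698, 0.607 and 0.185, so in both genes the lowest mutant library fell under the highest of Col-0. For CASP4 the ranges were 0.319 to 0.882 FPKM in Col-0 and 0.315 to 1.29 in the mutant, almost wholly shared. When the filter on low values was dropped, all 8 genes entered the fit and the same 3 passed, whereas CASP2 (limma, adjusted p = 0.0741), CASP1 (0.116) and CASP4 (0.465) did not.

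Of the 2 kinase genes of the barrier-surveillance pathway, the cytoplasmic one moved. SGN1 was at 0.0506, 0.0640 and 0 FPKM in Col-0 and at 1.80, 2.06 and 1.01 in the mutant. Its groups were far apart (log2 fold change 1.31 ± 0.18 SE; limma, adjusted p = 0.000353). The receptor gene SGN3 was at 1.19, 1.31 and 0.881 FPKM in Col-0 and at 1.81, 1.55 and 1.25 in the mutant. Its lowest mutant library lay within the Col-0 range, and its log2 fold change of 0.25 ± 0.14 (SE; limma, adjusted p = 0.153) was close to the median shift of all genes.

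ESB1, the dirigent gene, was too low to enter the test. It was at 0.335, 0.303 and 0.341 FPKM in Col-0 and at 0.0655, 0.139 and 0.359 in the mutant. These values came from an estimated 15, 11 and 12 fragments in Col-0 and 2, 4 and 16 in the mutant. Without the filter the log2 fold change was -0.17 ± 0.09 (SE; limma, adjusted p = 0.175). The mutant libraries straddled the Col-0 range, with 2 below it and library 4 just above. Its antisense partner AT2G28671 was at 0.0304 FPKM or less in all 6 libraries. The part of dropped reads in the low values of both loci was not tested.

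Taking the 8 genes by library, 3 (MYB36, CASP5 and SGN1) had every mutant library above every Col-0 library and 0 had the reverse. Among 23144 genes above 0 in the table, 39.2% had mutant libraries wholly above Col-0, so 3 of 8 is close to the share of all genes. Mutant library 4 held the lowest value of its group in 7 of the 8 genes, ESB1 being the exception, and the summed level of the 4 CASP genes was 10.9, 9.94 and 3.61 FPKM in mutant libraries 2, 3 and 4 against 1.57, 0.434 and 0.385 in Col-0. Leaving out any 1 mutant library took CASP5 and SGN1 below the filter, so that 1 gene (MYB36) was called, and with the tested genes kept as they were the count stayed at 3, and without mutant library 4 the log2 fold change of CASP5 was 3.06. A test against a change of at least 1 on the log2 scale kept CASP5 (adjusted p = 0.00835) and not MYB36 (0.135) or SGN1 (0.768), each by limma. In bulk meristems, a larger share of differentiating endodermal cells and more RNA per such cell cannot be told apart.

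**Figure D1:**
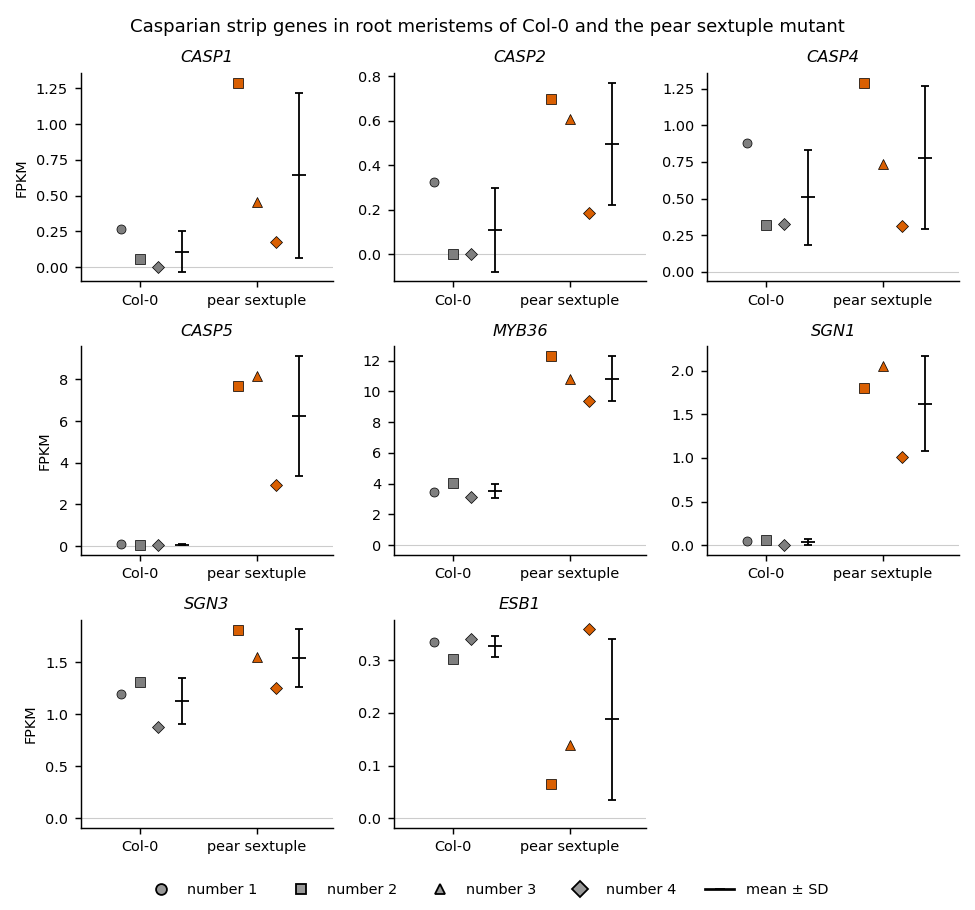
FPKM (vertical axes, linear, 1 scale per gene) of the 8 Casparian strip genes in each root meristem library of Col-0 (grey) and the pear sextuple mutant (orange), with marker shapes for library numbers and bars for mean ± SD (n = 3). CASP5, MYB36 and SGN1 show no overlap between the groups, CASP4 and SGN3 overlap, and ESB1 is spread out in the mutant.

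Genes around the members moved in part. SCL3, a GRAS regulator acting with SHR and SCR in the ground tissue, rose from 8.12 ± 0.823 to 16.5 ± 1.58 FPKM (SD, n = 3 each), with limma's log2 fold change at 0.94 ± 0.10 (SE) and its adjusted p at 0.000113, and it was the only one of 5 upstream ground tissue factors to pass. SHR, SCR, JKD and MGP had log2 fold changes between -0.06 and 0.13. Of 15 other genes of strip formation, 7 were tested. The exocyst subunit gene EXO70A1, which is needed to place CASP1 in the membrane, rose (log2 fold change 0.31, adjusted p = 0.00359), as did the blue-copper protein gene UCC1 (0.92, adjusted p = 0.045). The peroxidase gene PER39 fell by 0.93 on the log2 scale (adjusted p = 0.0169), from 58.4 ± 21.5 to 29.6 ± 7.85 FPKM (SD, n = 3 each). The median over the 7 was 0.14, under the 0.21 of all genes.

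The peroxidase gene PER64 and the laccase gene LAC3, which act at the strip, were too low to be tested, unlike PER39, which fell. In Col-0 libraries 1, 2 and 4, PER64 was at 0.0937, 0.0395 and 0 FPKM, and in the mutant at 0.897, 0.636 and 0.218. LAC3 was listed at 0 in all 3 Col-0 libraries and at 0.358, 0.408 and 0.112 in the mutant. Both were again lowest in mutant library 4. Of 18 suberin genes, which serve the later coat of the endodermis, 4 were tested: the transporter gene ABCG20 rose (log2 fold change 0.82, adjusted p = 0.000193) and MYB53, a regulator of suberin genes, fell by 0.91 (adjusted p = 0.000957).

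Markers of other cell types also differed between these meristems, where 44.6% of all tested genes were called higher and 18.6% lower. Of the root cap factors, 3 of 4 rose (SMB, BRN1 and BRN2, with log2 fold changes of 1.25, 1.26 and 1.17), and the summed level of the 4 was 185 to 209 FPKM in the mutant against 76.4 to 93.3 in Col-0. Of 5 epidermis and root hair markers, 3 rose, with summed levels of 161 to 166 against 120 to 135 FPKM. The 2 cortex markers summed to 18.4 to 24.5 against 23.2 to 37.0 FPKM, and the marker CORTEX fell by 0.53 on the log2 scale (adjusted p = 0.0361). Of 11 sieve element markers, 8 were tested, and 3 were called higher and 4 lower. Of 8 xylem markers, 5 were tested, and 1 was called higher and 0 lower. The part of these shifts in the rise of the Casparian strip genes was not tested.

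The wider CASP-like family, whose products share the membrane-spanning fold of the CASP proteins and mostly act outside the endodermis, was counted from the annotation. It held 35 further genes, and 21 were tested. In the mutant, 14 rose and 1 fell, where 44.6% of all tested genes were called higher and 18.6% lower. The median log2 fold change was 0.56 over the 21, against 0.21 over all tested genes. The largest were AT4G15610 (from 7.56 ± 2.55 to 41.7 ± 6.76 FPKM, log2 fold change 2.35, adjusted p = 3.5e-05) and AT1G17200 (from 1.00 ± 0.432 to 8.14 ± 0.689 FPKM, 2.21, adjusted p = 1.89e-05), SD over n = 3 each and limma throughout. AT3G55390 fell by 0.81. By mean level over all 6 libraries the family was led by AT2G28370 (42.8 FPKM), AT5G40300 (28.0), AT4G16442 (25.1) and AT4G15610 (24.6), the last through its mutant libraries, and of these 4 AT5G40300 and AT4G15610 passed the test. AT4G15610 and AT4G15630 are relatives with neighbouring locus codes, and their reads may have been split.

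**Figure D2:**
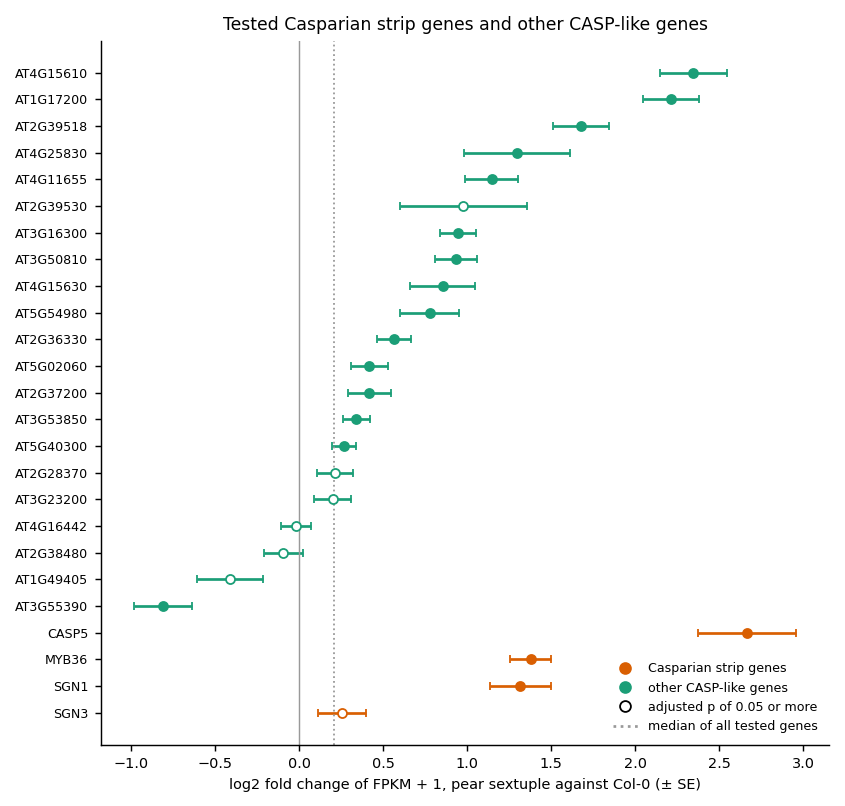
Log2 fold change of FPKM + 1 (horizontal axis, ± SE) of the 4 tested Casparian strip genes (orange) and the 21 tested other CASP-like genes (green) in the pear sextuple mutant against Col-0, with open circles for genes that did not pass and a dotted line at the median of all tested genes. CASP5 lies furthest right at 2.66, and 14 of the green genes are filled to the right of 0 against 1 to the left.

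In the meristems of the ZAT14-like and ZAT14 lines, none of the Casparian strip genes passed the test at any time, and CASP1 and CASP2 were at or near 0 in most libraries. The comparisons ask what forced expression of either zinc finger gene in the stele does to the meristem. No estradiol library came from a line without an inserted gene, and in each line the same DMSO group served both times. Effects of estradiol itself or of harvest time therefore cannot be told apart from those of the inserted gene. MYB36 had the highest level of the 8, at 2.10 to 5.27 FPKM with a median of 3.18 over the 18 libraries, followed by SGN3 at 0.558 to 1.91 (median 1.04) and CASP4 at 0.377 to 1.28 (median 0.62). These 3 entered the test. ESB1 was at 0.0735 to 0.514 FPKM (median 0.198) and CASP5 at 0 to 0.591 (median 0.209), whereas the medians of CASP1, CASP2 and SGN1 were 0.052, 0 and 0.122. CASP1 was listed at 0 in 9 of the 18 libraries and CASP2 in 11.

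By limma with Benjamini-Hochberg adjustment, 0 of the 3 tested members passed in any of 10 contrasts. Of all 17157 genes, the share called against DMSO in the ZAT14-like line was 13.8% after 10 h, 12.4% after 14 h and 14.7% for the mean of both times, with 8.66% called between the times. In the ZAT14 line the shares were 3.21%, 4.28%, 3.28% and 5.03% in that order, and the DMSO libraries of the 2 lines differed in 0.0991% of genes. At an unadjusted p below 0.05 the members numbered 1 for 14 h against DMSO in the ZAT14-like line (SGN3), 1 for 14 h against 10 h there (SGN3 again) and 0 in the other contrasts. Over all genes that looser rule took 31.8%, 28.0%, 30.7% and 25.7% in the ZAT14-like line, 14.8%, 17.1%, 15.1% and 18.3% in the ZAT14 line, in the order above, and 2.31% between the DMSO groups. The contrasts within a line share their DMSO libraries. No gene of the 8 passed under any alternative tried.

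MYB36 stood at 2.30, 2.87 and 2.85 FPKM in DMSO libraries 1, 2 and 4 of the ZAT14-like line. It was at 3.54, 3.20 and 2.56 FPKM in libraries 1, 3 and 4 after 10 h, and at 3.12, 5.27 and 3.19 in the same numbers after 14 h. All 14 h libraries were above all DMSO libraries, but 2 of the 3 only narrowly. The log2 fold changes were 0.16 ± 0.19 (SE; limma, adjusted p = 0.595) at 10 h and 0.38 ± 0.19 (adjusted p = 0.200) at 14 h.

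In the ZAT14 line, MYB36 was at 3.12, 3.29 and 2.18 FPKM in DMSO libraries 1, 2 and 4, at 2.10, 3.37 and 3.29 in 10 h libraries 2, 3 and 4, and at 3.22, 4.90 and 3.18 in 14 h libraries 1, 3 and 4. The groups overlapped at both times. The log2 fold changes were 0.02 ± 0.19 (SE; limma, adjusted p = 0.985) and 0.30 ± 0.19 (adjusted p = 0.485). The 6 group means ran from 2.67 ± 0.322 to 3.86 ± 1.22 FPKM (SD, n = 3), and neighbours in that order lay closer together than the larger of their SDs.

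SGN3, the receptor, was at 0.775, 0.864 and 1.03 FPKM after DMSO in the ZAT14-like line, at 0.752, 1.05 and 0.956 after 10 h and at 1.29, 1.91 and 1.18 after 14 h. The 14 h libraries lay above all others of that line, yet the change missed the adjusted threshold (log2 fold change 0.37 ± 0.17 SE; limma, adjusted p = 0.156). In the ZAT14 line it was at 1.22, 0.558 and 0.901 FPKM after DMSO and at 1.14, 1.19 and 0.772 after 14 h, and the fold change there was 0.11 ± 0.17 on the log2 scale (adjusted p = 0.824). The difference in response between the lines, averaged over both times, was 0.05 ± 0.20 for SGN3, 0.11 ± 0.23 for MYB36 and -0.07 ± 0.23 for CASP4 (SE), with adjusted p of 0.962, 0.914 and 0.951, and 0.361% of all genes were called in that contrast, with 7.55% at an unadjusted p below 0.05.

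CASP4 was the one scaffold gene with a steady low level. It was at 0.558, 0.464 and 1.28 FPKM after DMSO and at 0.411, 1.08 and 0.448 after 14 h in the ZAT14-like line, and at 0.647, 0.844 and 0.719 and then 0.377, 0.798 and 1.13 in the ZAT14 line. The groups overlapped in both lines, and the 4 log2 fold changes against DMSO lay between -0.14 and 0.00.

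The 2 libraries numbered 3 at 14 h, 1 in each line, held most of the signal of CASP1 and CASP2. CASP1 was at 1.38 FPKM in the ZAT14-like library and 1.51 in the ZAT14 one, an estimated 25 and 32 fragments, and the 16 others held 0.901 or less. CASP2 was at 0.602 and 0.729 FPKM there. MYB36 and SGN1 had their highest values of the table in the same pair, MYB36 in both (5.27 and 4.90) and SGN1 at 0.622 in the ZAT14-like library and 0.266 in the other. ESB1 was at 0.401 FPKM in the ZAT14-like library, the highest of its group, and at 0.200 in the other, near the median of the table.

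Counted gene by gene, 2 of the 8 (MYB36 and SGN3) had all 14 h libraries above all DMSO libraries in the ZAT14-like line, where 16.7% of 24723 genes did, and 0 did so in the ZAT14 line, where 12.7% did. For 14 h against 10 h the count was 1 in the ZAT14-like line (SGN3; 9.51% of genes) and 1 in the ZAT14 line (CASP1; 10.7%). CASP1 was at 0.901, 1.51 and 0.243 FPKM after 14 h in that line and at 0, 0.104 and 0 after 10 h, but at 0.467, 0 and 0 after DMSO. With both libraries numbered 3 at 14 h left out, a choice made after seeing the data, CASP4 no longer reached the filter and the 14 h log2 fold changes of MYB36 were 0.18 and 0.13 in the 2 lines. Those of SGN3 were 0.24 and 0.06.

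**Figure D3:**
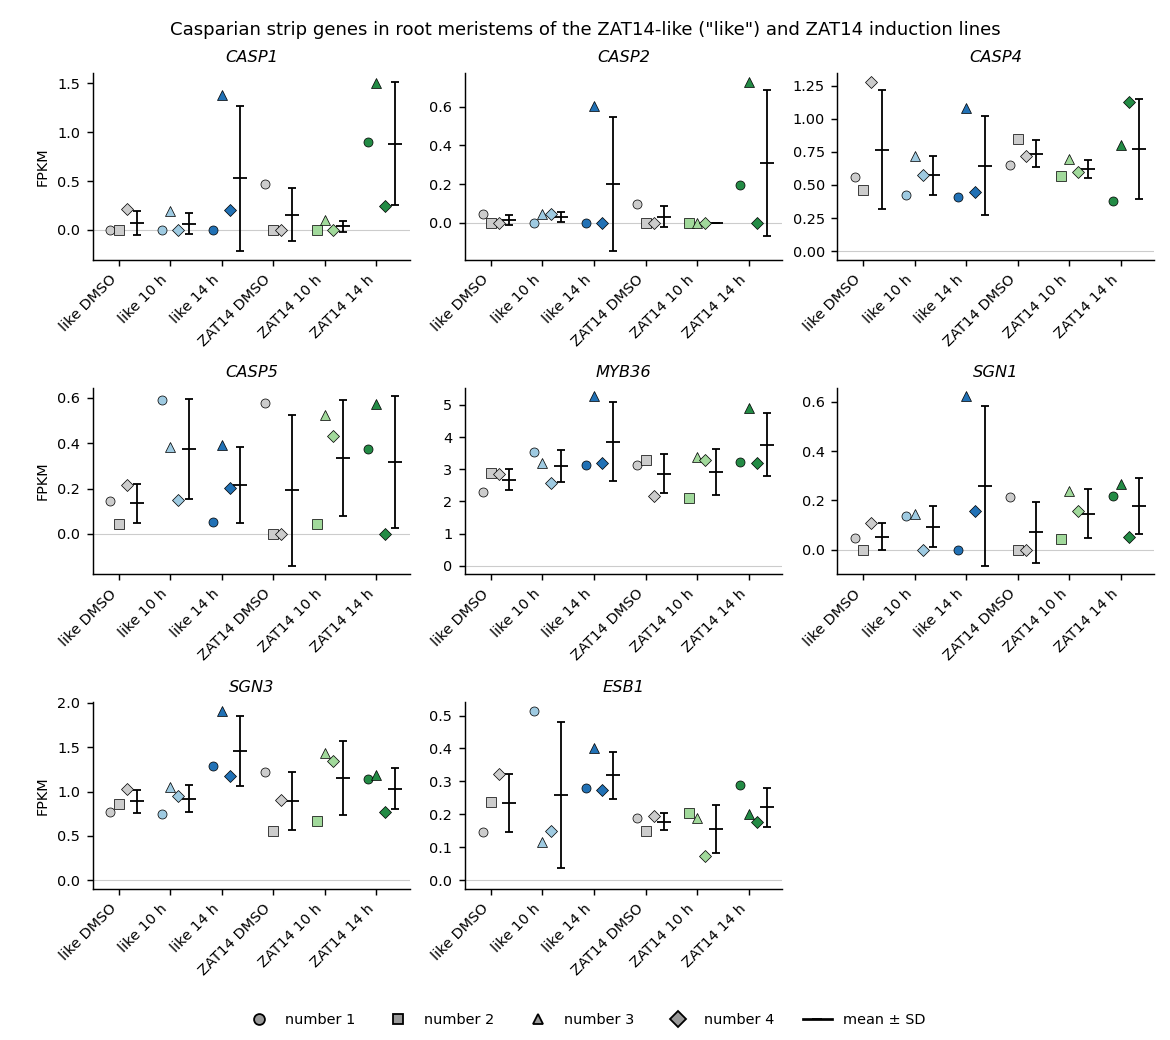
FPKM (vertical axes, linear, 1 scale per gene) of the 8 Casparian strip genes in the 18 root meristem libraries of the ZAT14-like line (left 3 groups) and the ZAT14 line (right 3 groups), with marker shapes for library numbers and bars for mean ± SD (n = 3). In CASP1, CASP2 and MYB36 the triangles at 14 h, the libraries numbered 3, stand above the rest, while CASP4 and ESB1 show no such pair.

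Some other genes of strip lignification stood high in the same pair of libraries. The peroxidase gene PER64 was at 0.405 and 0.589 FPKM, PER72 at 0.936 and 2.04, and the laccase gene LAC3 at 0.332 and 0.425, against at most 0.229, 0.633 and 0.0910 in the other 16. All 15 other strip genes together summed to 519 and 350 FPKM in the pair. The other 14 h libraries summed to 413 and 419 FPKM in the ZAT14-like line and to 360 and 339 in the ZAT14 line. Of the 5 epidermis and root hair markers, the expansin gene EXPA7 was at 3.84 and 3.44 FPKM in the pair and at 0.967 or less elsewhere, and COBL9 was at 4.61 and 1.87, the second within the range of the other libraries. RHD6 (22.1 and 18.3 FPKM), GL2 (12.8 and 11.2) and WER (64.8 and 60.0) lay within the ranges of the other 16. The cortex marker CO2 was at 5.91 and 4.99 FPKM, within its range of 4.84 to 8.02, and the other cortex marker, CORTEX, was at 14.5 and 7.95, the second of these being the lowest of the 18. How far down the root each meristem was cut was not recorded in the sources used here, and its part in these values was not tested.

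Across the 18 libraries, after subtracting group means on the log2(FPKM + 1) scale, the 15 pairs among the members other than CASP4 and ESB1 had Pearson r between 0.55 and 0.92 with a median of 0.73, and Spearman rho between 0.47 and 0.89. Leaving out, for each pair, the 2 libraries farthest from the median of its first gene, r ran from 0.34 to 0.88. The libraries left out could thus differ between pairs. The pairs with CASP4 had r of 0.01 to 0.39 and those with ESB1 -0.01 to 0.32. CASP1 had r of 0.90 with PER72, 0.89 with LAC3, 0.96 with EXPA7 and -0.68 with CO2. Its r was 0.67 with COBL9, 0.17 with SCR and 0.16 with SHR. The points share their library, and most CASP1 and CASP2 values are a few fragments, so these figures describe libraries and carry no test.

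**Figure D4:**
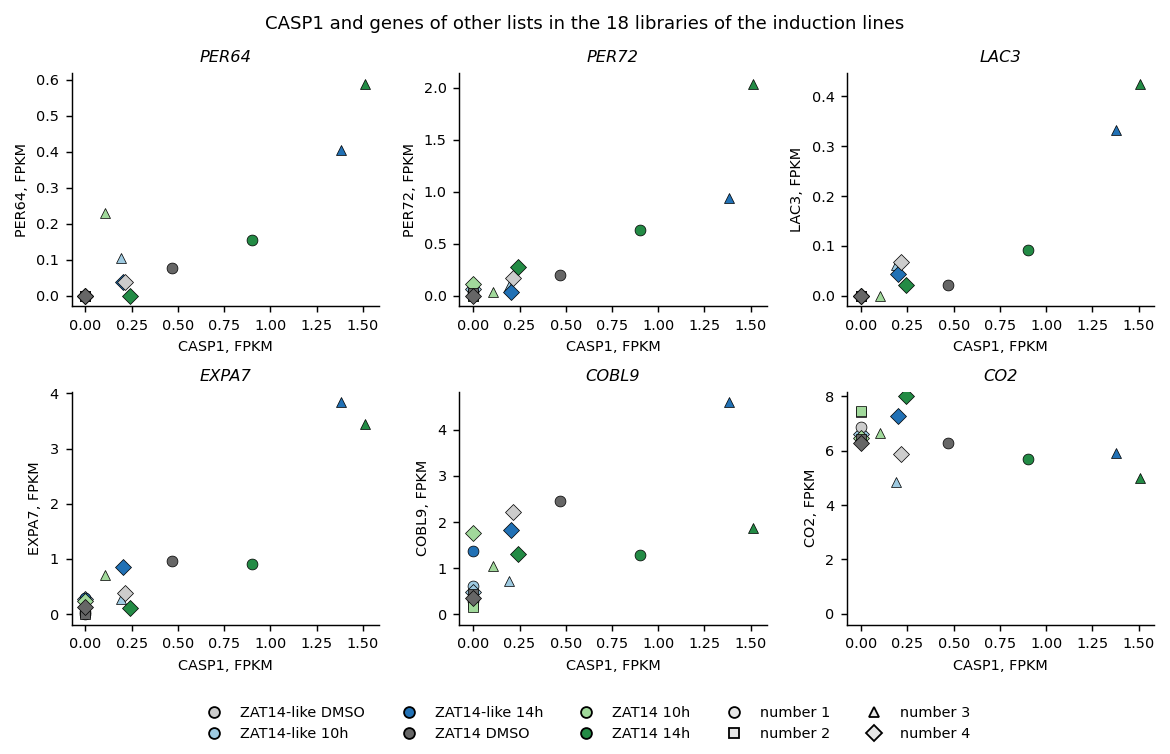
FPKM of CASP1 (horizontal axes) against FPKM of PER64, PER72, LAC3, EXPA7, COBL9 and CO2 (vertical axes) in the 18 libraries of the induction lines, with colours for groups and marker shapes for library numbers. The 2 triangles at the right, CASP1 at 1.38 and 1.51 FPKM, are the 14 h libraries numbered 3, which are also highest in PER64, PER72, LAC3 and EXPA7, while CO2 is in the lower part of its range.

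The genes whose profile over the 18 libraries was most like the mean standardised profile of MYB36, SGN3 and CASP4, out of 17154 ranked, began with the sucrose transporter gene SUC1 (Pearson r = 0.89, mean 2.59 FPKM). Next came AT3G54580, AT3G22240 and AT5G55050 (0.88 each), AT3G09925 and the root hair gene SHV2, another name of COBL9 (0.87 each), AT5G66815 (0.86), and MOP10, the tonoplast aquaporin gene TIP2;2 and AT3G22620 (0.85 each). With group means subtracted, AT1G17340 led at 0.95, followed by SUC1 at 0.92, AT1G19230 and AT2G02780 at 0.91, AT5G65440 at 0.90, and AT5G55050, AT2G27080, AT3G22240, AT1G66180 and WAVH1 at 0.89. None of the other 15 strip genes was among them.

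Of those 15, 8 were tested in the induction table. EXO70A1 rose in the ZAT14-like line at 10 h, from 32.1 ± 1.90 to 38.0 ± 1.01 FPKM (SD, n = 3 each; log2 fold change 0.235, limma adjusted p = 0.0382). PER39, a peroxidase gene of the endodermis, rose there at 14 h, from 50.0 ± 19.8 to 101 ± 17.3 FPKM (1.06, adjusted p = 0.0478). In the ZAT14 line 0 of the 8 passed at either time by limma, with 1 at an unadjusted p below 0.05 at 10 h and 0 at 14 h. Upstream of the strip, JKD, which acts with SHR and SCR in the ground tissue, rose in all 4 contrasts with DMSO (log2 fold changes of 0.45 to 0.72), and MGP and SCL3 rose at 14 h in both lines. SHR fell by 0.33 at 10 h and by 0.31 at 14 h in the ZAT14-like line. These factors moved without a called change in MYB36 or CASP4.

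Markers of other cell types moved as well. Of the xylem markers in the ZAT14-like line, 6 of the 6 tested were higher at 14 h, led by the protease genes XCP1 and XCP2 with log2 fold changes of 2.78 and 2.08, and with a summed level of 46.8 to 63.5 FPKM against 6.86 to 13.2 after DMSO, and in the ZAT14 line 5 of 6 were higher. CORTEX was higher at 10 h in both lines. Of the other CASP-like genes, 21 were tested. In the ZAT14-like line 1 was called higher and 2 lower at 10 h, and 0 and 2 at 14 h, where 13.8% and 12.4% of all genes were called. In the ZAT14 line 0 were called higher and 1 lower at each time, beside 3.21% and 4.28% of all genes. AT4G15630 fell by 0.92 on the log2 scale at 14 h in the ZAT14-like line and by 1.42 and 1.04 at 10 h and 14 h in the ZAT14 line. Root cap markers had 0 of 4 called in each of these contrasts by limma, with 0 at an unadjusted p below 0.05. Their part in the levels of the Casparian strip genes was not tested.

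In sorted sieve element cells, the Casparian strip genes were detected at low counts in most libraries and none passed the test between estradiol and DMSO. The comparison asks what keeping PLT2 on does in maturing sieve elements, a cell type that forms no Casparian strip. Cells were sorted on RFP alone after DMSO and on RFP and YFP after estradiol. An effect of PLT2 therefore cannot be told apart from a difference in the cells sorted. By edgeR's quasi-likelihood test with Benjamini-Hochberg adjustment, 0 of the 7 tested genes passed, 0 had an unadjusted p below 0.05, and DESeq2 called 0 as well. Of 24673 genes tested, edgeR called 162, or 0.657%, and 20.8% had an unadjusted p below 0.05, while DESeq2 called 3019. ESB1 was too low to be tested. For no member did the groups separate, while 30% of 32423 detected genes had all estradiol libraries above all DMSO libraries and 4.76% the reverse.

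The libraries within each group were spread widely. CASP1 had 419, 9 and 144 counts in DMSO libraries 1, 2 and 4 and 224, 62 and 417 in estradiol libraries 1, 2 and 3. DMSO library 2 was lowest and DMSO library 1 highest, so the control group alone covered the whole range. The log2 fold change was -0.14 ± 1.00 (SE; edgeR, adjusted p = 0.956).

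MYB36 had 284, 0 and 5 counts after DMSO and 167, 28 and 251 after estradiol. It had no read in 1 control library and few in another, and was well detected in the third. Its log2 fold change of 0.39 ± 1.58 (SE; edgeR, adjusted p = 0.920) leaves a change of several fold in either direction undetectable in these libraries.

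The other scaffold genes had a similar spread. CASP2 had 191, 9 and 98 counts after DMSO and 159, 128 and 218 after estradiol. CASP4 had 99, 0 and 25 against 76, 36 and 155, and CASP5 had 93, 0 and 11 against 51, 0 and 149. In each of them DMSO library 2 was lowest or tied for lowest and estradiol library 3 highest. The log2 fold changes of these 3 genes lay between 0.24 and 0.70 with SE of 0.80 to 1.78.

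Of the kinase genes, SGN1 had 166, 0 and 64 counts after DMSO and 190, 118 and 244 after estradiol, and SGN3 had 294, 26 and 60 against 210, 127 and 262. Both were again lowest in DMSO library 2, and SGN3 was highest in DMSO library 1. Their log2 fold changes were 0.81 ± 1.20 and 0.22 ± 0.71 (SE; edgeR, adjusted p = 0.757 and 0.897). ESB1 had 4, 1 and 1 counts after DMSO and 4, 9 and 4 after estradiol, near the limit of detection in every library, and AT2G28671 had 6 or fewer.

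Per length, CASP1 had the highest level of the 8, with a median of 5.42 RPKM over the 6 libraries, followed by CASP2 (3.55), SGN1 (1.89), MYB36 (1.77), CASP4 (1.37), SGN3 (0.975), CASP5 (0.901) and ESB1 (0.0527). The ranges of all neighbours in that order overlapped. The order differs from the meristem tables, where MYB36 led and CASP1 was near 0, but those tables were normalised separately and come from another kind of sample, so no test was made across them.

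**Figure D5:**
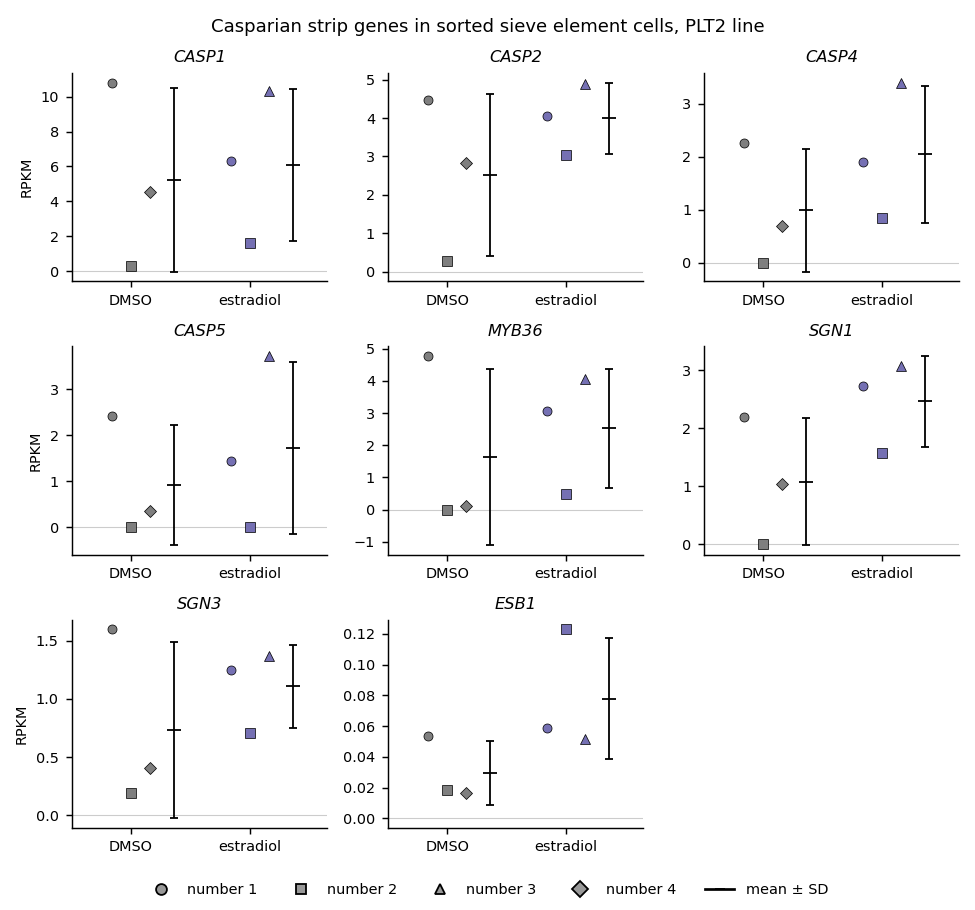
RPKM (vertical axes, linear, 1 scale per gene) of the 8 Casparian strip genes in the sorted sieve element libraries after DMSO (grey) and estradiol (purple), with marker shapes for library numbers and bars for mean ± SD (n = 3). The square in the DMSO group, library 2, is at or near 0 in every gene, and the groups overlap in all 8.

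The 21 pairs among the 7 tested members had Pearson r between 0.72 and 0.98 over the 6 libraries on the log2(CPM + 1) scale, with a median of 0.90 and Spearman rho of 0.77 to 1.0. Leaving out, for each pair, the 2 of the 6 libraries farthest from the median of its first gene, r ran from 0.69 to 1.0. Pairs with ESB1 had r of -0.05 to 0.46. PER64, PER72, LAC3 and DIR9, the last a dirigent gene, had r of 0.94, 0.96, 0.95 and 0.98 with CASP1. PER64 was at 8.61, 0.362 and 2.12 RPKM after DMSO and 7.46, 0.366 and 7.37 after estradiol, low in DMSO library 2 and estradiol library 2.

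Markers of other cell types differed between these libraries too. The summed level of the 8 Casparian strip genes was 36.1, 1.43 and 11.7 CPM in DMSO libraries 1, 2 and 4 and 27.4, 12.0 and 37.9 in estradiol libraries 1, 2 and 3. The 5 epidermis and root hair markers summed to 21.1, 0.541 and 15.8 and then 18.5, 5.99 and 25.3 CPM, and the 4 root cap markers to 62.5, 9.16 and 78.7 and then 105, 27.9 and 50.3. The 11 sieve element markers summed to 9050, 10200 and 14800 and then 7720, 5130 and 9340 CPM, and CALS7, the gene behind the sorting reporter, had 57026 to 176439 counts. Of the 2 cortex markers, CO2 was at 0 in all 3 DMSO libraries and in estradiol library 3, whereas CORTEX had 112, 60 and 47 counts after DMSO and 61, 39 and 42 after estradiol. DMSO library 2, lowest in the strip genes, also detected the fewest genes, 21340 against 27617 to 30143 in the others. The part of unsorted cells or free RNA from other cells in these counts was not tested. Without DMSO library 2 the count of members called stayed at 0, the log2 fold changes of the 7 ran from -0.69 to 0.24, and the number of genes called in all fell to 0.

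Of the 15 other strip genes, all were tested and 0 passed by edgeR, with 5 at an unadjusted p below 0.05. Those 5 were genes of the signal and its cell biology. CIF2, a peptide ligand of SGN3 that is made in the stele, was at 59.4, 112 and 49.9 RPKM after DMSO and at 34.7, 33.4 and 37.3 after estradiol, without overlap (log2 fold change -1.67 ± 0.40 SE, adjusted p = 0.0723). CIF1 was at 4.88, 6.09 and 3.09 RPKM and then 3.51, 0.864 and 0.915, with overlap (adjusted p = 0.198). TPST, the enzyme that sulfates these peptides, was at 16.4, 15.4 and 9.94 RPKM and then 47.9, 40.9 and 44.9, without overlap (log2 fold change 1.14 ± 0.26, adjusted p = 0.0697). The RPKM values lack the TMM factors used for the fold changes, 0.717 to 1.01 for DMSO and 1.15 to 1.28 for estradiol libraries, so the 2 scales differ. Without those factors, 30% of detected genes had estradiol wholly above DMSO and 4.76% wholly below. The oxidase gene RBOHF had a log2 fold change of -2.27 ± 0.66 (adjusted p = 0.111) and EXO70A1 one of -0.95 ± 0.26 (adjusted p = 0.0931).

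In whole meristems CIF2 was at 1.40 FPKM or less in all 24 libraries and CIF1 at 0.219 or less, beside SGN3 at 0.558 to 1.91. The sorted cells and the meristems are different kinds of sample with separate normalisations, and these levels were not tested against each other. SCR, the endodermal identity factor, was at 0.126 to 2.58 RPKM in the sorted cells, and of the 5 upstream ground tissue factors 0 passed the test by edgeR, with 2 at an unadjusted p below 0.05 (MGP and SCL3). Of 13 tested suberin genes and 27 tested CASP-like genes, 0 were called, with 0 and 5 at an unadjusted p below 0.05.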

How the data were processed

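RNA-seq of 24 root meristem libraries and 6 sorted-cell libraries was analysed, and the members and gene lists were chosen with earlier results of these data known. FPKM values were deposited by the authors in 2 tables, made with TopHat2 and HTSeq on TAIR10, and the deposited counts of the sorted cells came from Bowtie2 and featureCounts on TAIR10, per the submitters' processing notes, which give no versions. The sorted-cell cDNA was amplified by PCR, per the labels' protocols, so counts are not molecules. FPKM was tested with limma 3.58.1 (trend) on log2(FPKM + 1), for genes of at least 1 FPKM in 3 libraries, with all 6 groups in 1 fit for the induction table. Counts were tested with edgeR 4.0.16 (TMM scaling, filterByExpr, quasi-likelihood), and DESeq2 1.42.0 was an alternative. Calls are Benjamini-Hochberg adjusted p below 0.05 over all tested genes. CPM and RPKM were computed from the counts and library totals without TMM factors, with exon lengths of TAIR10.1. Depth of the FPKM tables was estimated from the spacing of low values, which came out within 0.05 of whole fragments for 91.9% to 95.1% of them in the induction table and for 52.4% to 57.1% in the mutant table, so fragment numbers there are rough. Of the 9 listed genes, 1 is not reported here, and the other 8 are named in each comparison, and up to 4 called genes of each other list. Tests were tried on simulated data: of 100 genes changed by 1 on the log2 scale, 97 were called in the mutant design, 96 in that of the ZAT14-like line at 14 h and 47 in the PLT2 design. The changed genes were drawn from better-expressed ones, with a spread between libraries fixed in advance. These shares therefore do not carry over to members near or below 1 FPKM, or to members with widely spread counts. Alternatives were another pseudocount, no filter, median-ratio rescaling, a minimum change, a replicate block, other count tools and leaving out each library. Same-numbered libraries were taken as unpaired, since the labels tie them by number alone.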

Additional observations from a re-analysis of the deposited data

How the results depend on the processing

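The count of Casparian strip genes called was 0 under every alternative in the 10 contrasts of the induction lines and in the PLT2 comparison. In the mutant it was 3 under pseudocount 0.1, rescaling, the replicate block and no filter, and 1 when a change of at least 1 on the log2 scale was required. Leaving out 1 library gave 1 to 3, and each of the 3 values of 1 came from leaving out a mutant library, which took CASP5 and SGN1 below the filter; with the tested genes kept, all 6 gave 3. With the replicate block, SGN3 in the ZAT14-like line at 10 h went to -0.145, MYB36 in the ZAT14 line at 10 h to -0.095, CASP4 and SGN3 there at 14 h to -0.0892 and -0.052, CASP5 with PLT2 to -0.92 and CASP1 to 0.14, all log2 and none called; the block, over libraries whose numbers were not shown to pair them (same-numbered deviations correlated at -0.161 to 0.502), moved no count of members. CASP4 in the ZAT14 line at 14 h also turned under pseudocount 0.1 (-0.046) and rescaling (-0.000285). Without the 3 libraries numbered 2, SGN3 in the ZAT14 line at 14 h was -0.0202 and the response difference of MYB36 was -0.0097. Over leave-one-out settings, uncalled log2 fold changes that crossed 0 ran in the ZAT14-like line from -0.0285 to 0.0833 (SGN3, 10 h) and from -0.22 to 0.0034 (CASP4, 14 h). In the ZAT14 line they ran from -0.12 to 0.18 (MYB36, 10 h), -0.0337 to 0.172 (CASP4, 14 h) and -0.0202 to 0.235 (SGN3, 14 h), and for the response difference of SGN3 from -0.0735 to 0.182. With PLT2 they ran from -0.80 to 0.755 (CASP1), -0.27 to 0.78 (CASP2), -0.68 to 2.71 (CASP5), -0.20 to 4.98 (MYB36) and -0.19 to 1.30 (SGN3). Over all genes the calls ranged across alternatives from 663 to 11364 in the mutant, 25 to 3731 and 75 to 2754 at 10 h and 14 h in the ZAT14-like line, 5 to 571 and 15 to 1086 in the ZAT14 line, 1 to 106 for the response difference and 0 to 3019 with PLT2. The causes of these turns were not tested. At 0 to a few fragments a library, changes of CASP1 and CASP2 in wild-type meristems were not detectable at this depth.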
